A study of Mus musculus with 15 samples.

Results

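The genes described here encode the enzymes that write, copy, erase and read 5-methylcytosine in DNA. They are the maintenance methyltransferase Dnmt1, its recruiting factor Uhrf1 and the paralog Uhrf2, the de novo methyltransferases Dnmt3a and Dnmt3b, the methylcytosine dioxygenases Tet1, Tet2 and Tet3, and the methyl-CpG reader Mbd2. These 9 genes were chosen by name, and all 9 were found among the 31298 gene symbols of the deposited table. RNA had been sequenced from mouse hematopoietic stem cells (HSCs) of bone marrow, the cells that renew themselves and give rise to all blood lineages, separated by the amount of a histone label left in them.

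DNA methylation is copied after each round of replication. Uhrf1 binds hemimethylated CpG sites behind the replication fork and recruits Dnmt1, which methylates the new strand, whereas Dnmt3a and Dnmt3b can set methylation on unmethylated DNA. TET enzymes oxidise 5-methylcytosine, and the products are lost by dilution through replication or by excision through the glycosylase Tdg and base excision repair. In HSCs, Dnmt3a and Tet2 are known as regulators of self-renewal and differentiation, and both genes are often mutated in clonal blood disorders.

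All mice carried hCD34-tTA and TetO-H2BGFP, so that a transactivator under human CD34 regulatory sequence drives histone H2B carrying GFP, a green fluorescent protein. All received doxycycline in the drinking water, which switches the label off and lets each division dilute it. HSCs were LSK cells, which lack lineage markers and carry Sca1 and c-Kit, that were CD150+ but CD48- and Flk2-. They were divided into GFP4, GFP3, GFP2 and GFP1, with Total as the undivided sort. The labels do not state which bin holds the most label, and a higher number is taken to mean more label, so that GFP1 would have divided most. Each of the 5 groups had 3 libraries, numbered I, II and III. Replicate I came from mice of 5 months with 12 weeks of doxycycline, II from 5.5 months with 14 weeks and III from 6.5 months with 16 weeks, so that age, length of label dilution and replicate number cannot be told apart. The transgene marks only cells in which the CD34 sequence is active, and the labels do not say whether a library is 1 mouse or a pool or whether groups share mice, so the p-values measure only the spread between these libraries, which may be technical.

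Values are log2 expression as deposited, with 1 distribution common to all 15 libraries, so read depth is unknown and total RNA cannot be compared. The 10 HSC markers examined, among them Hlf and Mecom, summed to 0.281% to 0.294% of the linear values in GFP1, against 0.497% to 0.586% in GFP4. Of the 10, 7 were lower in GFP1 than in GFP4 at an adjusted p under 0.05 (limma), against 10.3% of all genes tested. Markers of B and plasma cells separated the groups. These 12 genes summed to 2.08% to 2.75% in GFP1 and 2.23% to 2.41% in Total, and to 0.0376% to 0.0650% in GFP4, 0.0352% to 0.0614% in GFP3 and 0.0299% to 0.0395% in GFP2. GFP2 against GFP4 uses neither GFP1 nor Total. The 4 megakaryocyte markers summed to 0.0928% to 0.145% in GFP1 and 0.0331% to 0.0438% in GFP2, against 0.0113% to 0.0138% in GFP4. Relative to GFP4, 4 were higher in GFP1 and 3 in GFP2, against 9.27% and 2.69% of all genes tested. In such bulk samples a smaller share of cells expressing a gene and less of its RNA per cell cannot be told apart.

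Dnmt1 and Uhrf1 were the members with the largest rise along the bins, and Uhrf2, the paralog of Uhrf1, passed in none of the 8 comparisons, so windows at their transcription starts are shown first. From RefSeq's table of GRCm38.p6, windows of 300 bases (250 before to 50 after a start) were used for 8 members, 13 windows in all. No window of Mbd2 was used, so the motif counts below do not cover it. Below, the window that holds an E2F-type motif is given for each of the 3 genes, 5′ to 3′ on the gene's strand. Capitals mark an E2F-type motif (TTCCCGC or TTGGCGC) and the CCAAT box, each on either strand; CCAATTGG holds the box on both strands at once.
Dnmt1 (chr9:20952574-20952873, minus strand): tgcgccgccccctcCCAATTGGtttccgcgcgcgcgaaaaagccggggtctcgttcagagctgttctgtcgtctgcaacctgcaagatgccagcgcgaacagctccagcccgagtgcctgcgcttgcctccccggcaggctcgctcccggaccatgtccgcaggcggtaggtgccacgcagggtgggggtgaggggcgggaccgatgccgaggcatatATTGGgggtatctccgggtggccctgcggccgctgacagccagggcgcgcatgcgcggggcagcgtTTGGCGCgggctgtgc
Uhrf1 (chr17:56303087-56303386, plus strand): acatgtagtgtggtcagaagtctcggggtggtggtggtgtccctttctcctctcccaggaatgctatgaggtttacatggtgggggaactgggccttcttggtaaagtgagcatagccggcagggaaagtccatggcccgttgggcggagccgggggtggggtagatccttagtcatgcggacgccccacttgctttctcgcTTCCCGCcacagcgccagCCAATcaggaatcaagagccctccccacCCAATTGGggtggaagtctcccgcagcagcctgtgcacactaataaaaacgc
Uhrf2 (chr19:30030263-30030562, plus strand): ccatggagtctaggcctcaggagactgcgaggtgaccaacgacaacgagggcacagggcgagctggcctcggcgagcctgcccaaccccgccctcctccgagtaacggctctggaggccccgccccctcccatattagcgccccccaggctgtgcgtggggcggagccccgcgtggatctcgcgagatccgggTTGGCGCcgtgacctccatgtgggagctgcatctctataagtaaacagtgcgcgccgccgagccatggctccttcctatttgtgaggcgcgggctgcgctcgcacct
The E2F-type motif was found in 1 of 3 Dnmt1 windows, 1 of 2 Uhrf1 windows and the only Uhrf2 window, against 6.81% of 32851 windows of this length in the table. No window of Dnmt3a, Dnmt3b, Tet1, Tet2 or Tet3 held these letters. The CCAAT box was in 2 of 3 Dnmt1 windows, both Uhrf1 windows and the Tet3 window, against 37.4% of all windows, and not in the Uhrf2 window. The CHR motif (TTTGAA, either strand), known from genes of mitosis, was in 1 Dnmt1 window and in the Dnmt3b window, against 17.9%. Such matches describe letters only, and the E2F-type letters stood both in Uhrf1 and in Uhrf2. The observed to expected ratio of CpG in the printed windows was 0.91 for Dnmt1, 0.472 for Uhrf1 and 0.825 for Uhrf2. It was 0.5 and 0.101 in the other Dnmt1 windows and 0.959 in the other Uhrf1 window, and the median over all windows was 0.384.

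**Figure D1:**
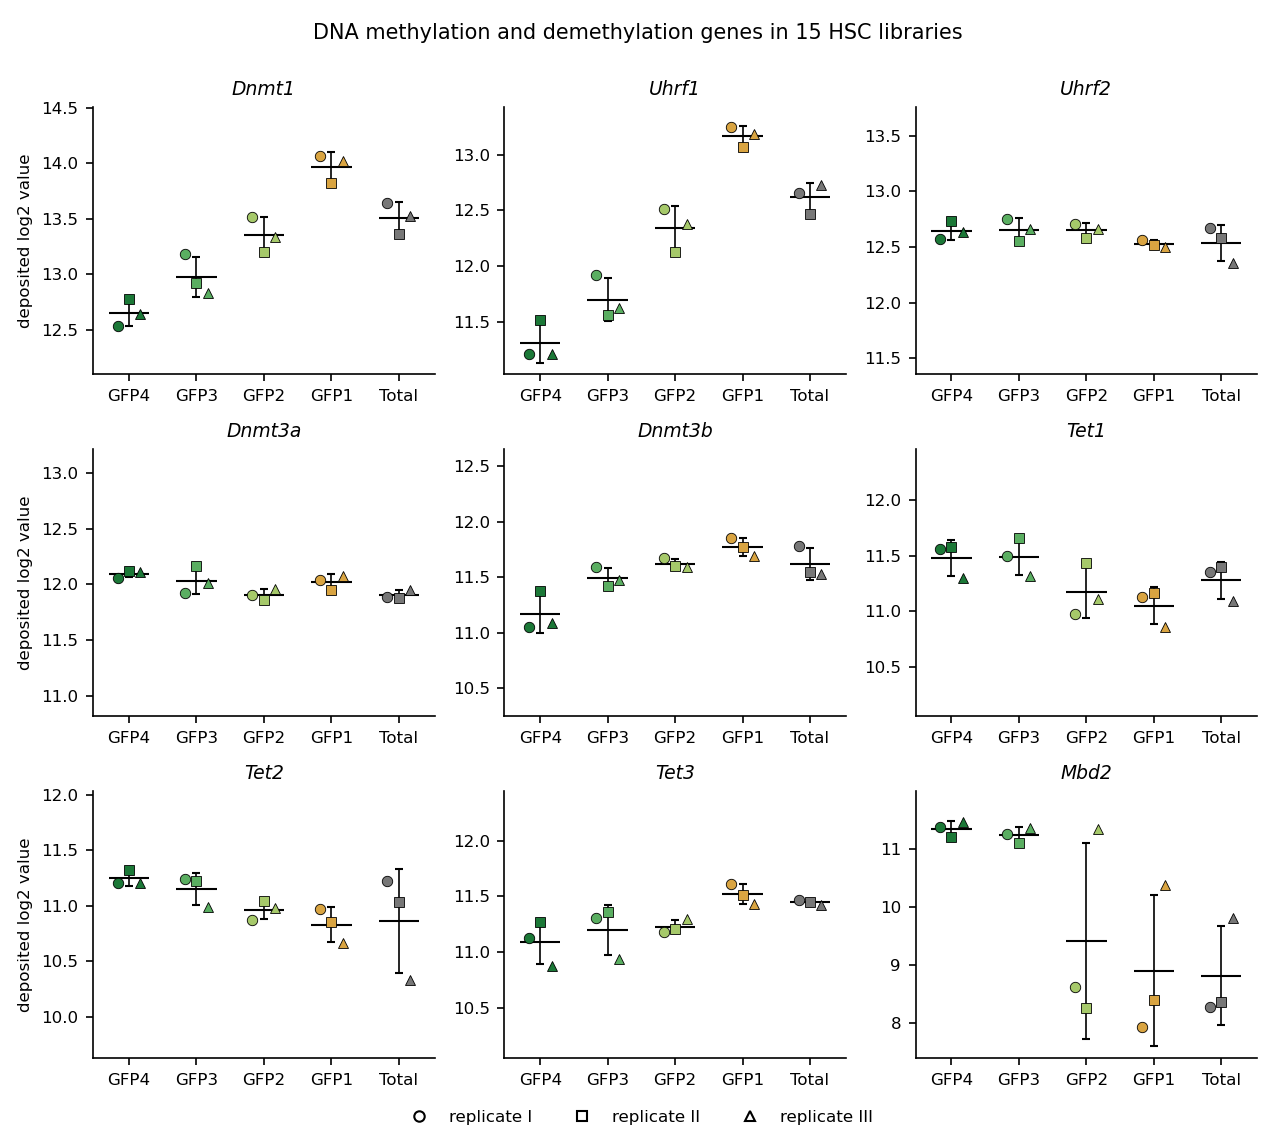
Deposited log2 values (vertical axis) of the 9 genes in each library of GFP4, GFP3, GFP2, GFP1 and Total, with the group mean (line) and SD (bar), n = 3. The vertical axis spans the same range in each panel except that of Mbd2, where it is wider. Dnmt1 and Uhrf1 climb from bin to bin, and Mbd2 has replicate III far above I and II in GFP2, GFP1 and Total.

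Dnmt1, which copies methylation onto the new strand (chromosome 9, 20907209 to 20959888, minus strand, GRCm38), was higher in every bin than in the bin before it, with no overlap of libraries. In the order of replicates I, II and III its log2 value was 12.54, 12.78 and 12.64 in GFP4, 13.18, 12.92 and 12.84 in GFP3, 13.52, 13.21 and 13.34 in GFP2, 14.07, 13.82 and 14.02 in GFP1, and 13.64, 13.36 and 13.53 in Total. GFP1 was thus the highest group, Total overlapped GFP2, and replicate I was the highest library in every group but GFP4. The mean was 13.97 ± 0.13 in GFP1 and 12.65 ± 0.12 in GFP4 (SD, n = 3 each). Dnmt1 was 2.49-fold higher in GFP1 (log2 difference 1.32, SE 0.108, adjusted p = 4.94e-08 by limma with Benjamini-Hochberg adjustment over all genes tested).

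Uhrf1, which reads hemimethylated CpG sites and brings Dnmt1 to them (chromosome 17, 56303321 to 56323486, plus strand), had the largest rise of the 9 genes. Its log2 values in replicates I, II and III were 11.21, 11.51 and 11.21 in GFP4, 11.91, 11.56 and 11.62 in GFP3, 12.51, 12.13 and 12.37 in GFP2, 13.25, 13.07 and 13.19 in GFP1, and 12.65, 12.47 and 12.73 in Total. No bin overlapped the next, Total overlapped GFP2, and all GFP1 libraries lay above all others. Uhrf1 was 3.63-fold higher in GFP1 than in GFP4 (log2 difference 1.86, SE 0.120, adjusted p = 3.73e-09, limma).

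Uhrf2, the paralog of Uhrf1 with a similar set of domains (chromosome 19, 30030513 to 30093722, plus strand), kept within a narrow range. It was 12.57, 12.73 and 12.64 in GFP4, 12.75, 12.55 and 12.66 in GFP3, 12.71, 12.58 and 12.66 in GFP2, 12.56, 12.51 and 12.50 in GFP1, and 12.67, 12.58 and 12.36 in Total. Every neighbouring pair in the order of its group means overlapped. The GFP1 libraries lay just below the GFP4 libraries, but the difference of −0.12 did not pass (95% interval −0.31 to 0.067, adjusted p = 0.455).

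Of the de novo enzymes, Dnmt3b passed the test between GFP1 and GFP4 and Dnmt3a did not. Dnmt3a (chromosome 12, 3806007 to 3914443, plus strand) was 12.06, 12.12 and 12.11 in GFP4, 11.93, 12.17 and 12.01 in GFP3, 11.90, 11.86 and 11.96 in GFP2, 12.04, 11.95 and 12.08 in GFP1, and 11.89, 11.88 and 11.95 in Total. GFP1 and GFP4 overlapped, and all 5 groups lay within the same narrow band. The difference, GFP1 minus GFP4, was −0.074 (95% interval −0.25 to 0.10, adjusted p = 0.679). GFP2 libraries lay below all GFP4 libraries, a difference of −0.19 that missed the threshold (adjusted p = 0.304). The antisense gene Dnmt3aos shares 133 of the 16642 exonic bases of Dnmt3a. The library kit does not mark strand, so reads within those shared bases cannot be told apart.

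Dnmt3b (chromosome 2, 153649450 to 153687730, plus strand) rose. Its log2 values were 11.05, 11.37 and 11.09 in GFP4, 11.59, 11.42 and 11.48 in GFP3, 11.67, 11.60 and 11.59 in GFP2, 11.85, 11.77 and 11.69 in GFP1, and 11.78, 11.55 and 11.53 in Total. The 3 GFP4 libraries were the lowest of the 15, GFP2 and Total overlapped, and GFP1 lay above GFP2 by a small margin. Dnmt3b was 1.52-fold higher in GFP1 than in GFP4 (log2 difference 0.60, SE 0.104, adjusted p = 0.00025, limma).

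Of the TET genes, Tet1 fell, Tet3 rose and Tet2 did not pass between GFP1 and GFP4. Tet1 (chromosome 10, 62804570 to 62908996, minus strand) was 11.56, 11.58 and 11.30 in GFP4, 11.50, 11.66 and 11.32 in GFP3, 10.97, 11.44 and 11.11 in GFP2, 11.13, 11.17 and 10.86 in GFP1, and 11.35, 11.40 and 11.09 in Total. Replicate III was the lowest library of its group in all but GFP2, and GFP1 lay below GFP4 without overlap. Tet1 fell by 0.43 on the log2 scale in GFP1 relative to GFP4 (SE 0.135, adjusted p = 0.0299, limma). That call was lost when GFP1 replicate III (adjusted p = 0.167), or 1 of GFP4 replicates I (adjusted p = 0.111) and II (adjusted p = 0.116), was left out. It was also lost without all 5 libraries numbered III (adjusted p = 0.0608), and after median-of-ratios rescaling (adjusted p = 0.0667).

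Tet2 (chromosome 3, 133463679 to 133545139, minus strand) was 11.21, 11.33 and 11.21 in GFP4, 11.24, 11.23 and 10.99 in GFP3, 10.88, 11.04 and 10.98 in GFP2, 10.98, 10.85 and 10.67 in GFP1, and 11.23, 11.03 and 10.33 in Total. The bin means descended in order from GFP4 to GFP1, and Total replicate III was the lowest of the 15 libraries. The difference of −0.41, GFP1 minus GFP4, missed the threshold (SE 0.165, adjusted p = 0.0942), although the libraries did not overlap. With the GFP1 and GFP4 libraries fitted alone it passed (adjusted p = 0.0105), as it did without Total replicate I (adjusted p = 0.0468) or III (adjusted p = 0.00593), libraries that enter only through the common estimate of the spread. Within each replicate number Tet2 was lower in GFP1 than in GFP4, and with the number, which marks mouse age and doxycycline length, as a block it passed (adjusted p = 0.0382). The antisense gene Gm42567 shares 43 of the 16870 exonic bases of Tet2, and reads within those shared bases cannot be told apart by strand.

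Tet3 (chromosome 6, 83362373 to 83459084, minus strand) was 11.13, 11.27 and 10.88 in GFP4, 11.30, 11.36 and 10.94 in GFP3, 11.18, 11.21 and 11.30 in GFP2, 11.61, 11.51 and 11.44 in GFP1, and 11.47, 11.45 and 11.42 in Total. All libraries of GFP1 and Total lay above all of the other 3 bins, which overlapped each other. Tet3 was 1.35-fold higher in GFP1 than in GFP4 (log2 difference 0.43, SE 0.118, adjusted p = 0.0126, limma). The adjusted p was 0.0606 when GFP1 replicate I was left out and 0.0937 when GFP4 replicate III was, so the call was lost in both cases. GFP2 against GFP4 missed the threshold (0.14, SE 0.118, adjusted p = 0.716). Immunoglobulin genes took 4.34% to 5.49% of the linear values in GFP1 and Total and 0.00726% to 0.0737% in the other bins. Apart from single libraries left out, 9 alternatives were run for GFP1 against GFP4, among them normalization without immunoglobulin genes. Tet3 kept its call in all 9 (0.36 to 0.48, highest adjusted p = 0.0337, limma). The part of cells carrying immunoglobulin transcripts in the Tet3 result was not tested.

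Mbd2, a reader that binds methylated CpG sites and carries the NuRD deacetylase complex to them (chromosome 18, 70568189 to 70626131, plus strand), had the widest range of the 9 genes. Its log2 value was 11.39, 11.20 and 11.47 in GFP4, 11.26, 11.12 and 11.37 in GFP3, 8.63, 8.27 and 11.36 in GFP2, 7.93, 8.41 and 10.39 in GFP1, and 8.29, 8.38 and 9.81 in Total. Replicates I and II were low in GFP2, GFP1 and Total, while replicate III stayed at the GFP4 level in GFP2 and lay between the levels in GFP1 and Total. Means of those 3 groups join unlike libraries. The difference of −2.44, GFP1 minus GFP4, missed the threshold (SE 0.834, adjusted p = 0.0694, limma). It passed without GFP1 replicate III (−3.18, adjusted p = 0.0260) or GFP2 replicate III (adjusted p = 0.0172), and under the 1 ppm filter (adjusted p = 0.0331), and a block on the replicate number gave an adjusted p of 0.0168. Without the 5 libraries numbered III, an alternative chosen after these values were seen, it was −3.13 (adjusted p = 1.44e-06), and GFP2 minus GFP4 was −2.85 (adjusted p = 1.08e-05, against −1.94 and 0.323 with all libraries).

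**Figure D2:**
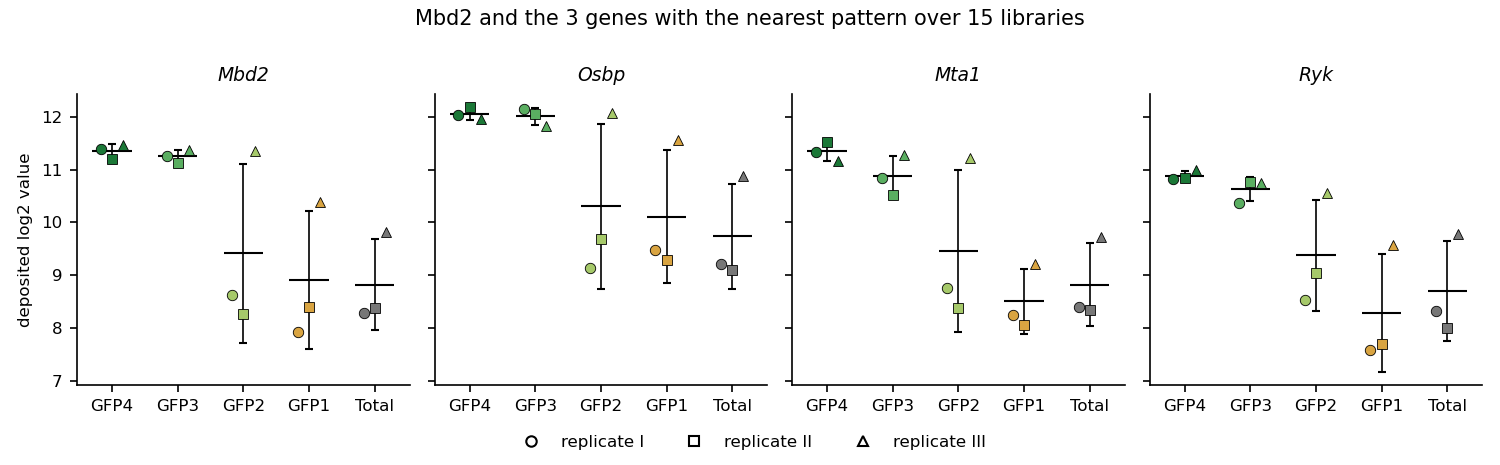
Deposited log2 values (vertical axis) of Mbd2 and of Osbp, Mta1 and Ryk in each library of the 5 groups, with the group mean (line) and SD (bar), n = 3. In all 4 genes, replicate III of GFP2, GFP1 and Total stands above replicates I and II of the same group.

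The same split was seen in other genes. Of 10337 genes whose mean was 10 ppm or more of all linear values, 12 had replicate III at least 1 log2 unit above both other replicates in each of GFP2, GFP1 and Total, and Mbd2 was the only member among them. For replicate I the count was 7 and for replicate II it was 18. The 3 genes most like Mbd2 over the 15 libraries were Osbp, an oxysterol-binding protein, Mta1, a NuRD subunit, and Ryk, a Wnt receptor. Their centred log2 values differed from those of Mbd2 by 0.245, 0.279 and 0.300 on average, against a median of 1.33 over 9879 genes compared. Mta1 was 8.25, 8.05 and 9.22 in GFP1 and 8.77, 8.39 and 11.22 in GFP2, against 11.34, 11.52 and 11.17 in GFP4. In these libraries the number III also marks the oldest mice with the longest doxycycline, and what sets replicate III apart was not tested.

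The widest contrast sets GFP1 against GFP4. Of the 9 members, 4 were higher in GFP1 (Dnmt1, Uhrf1, Dnmt3b and Tet3) and 1 was lower (Tet1) at an adjusted p under 0.05, whereas 19.5% of the 27994 genes tested were called in either direction (9.27% higher and 10.3% lower). Libraries of the 2 bins did not overlap for 8 of 9 members, against 32.8% of genes tested. The background includes many genes near the lowest value, while each member ranked above the lowest 65.3% of symbols in every library. Under the filter at 1 ppm, 2785 genes were higher and 3156 lower of 14037 tested, a larger share than 19.5%. There, 4 members were higher and 2 lower. The median difference over the members was −0.074, and over all genes tested −0.069, with median absolute differences of 0.43 in both.

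**Figure D3:**
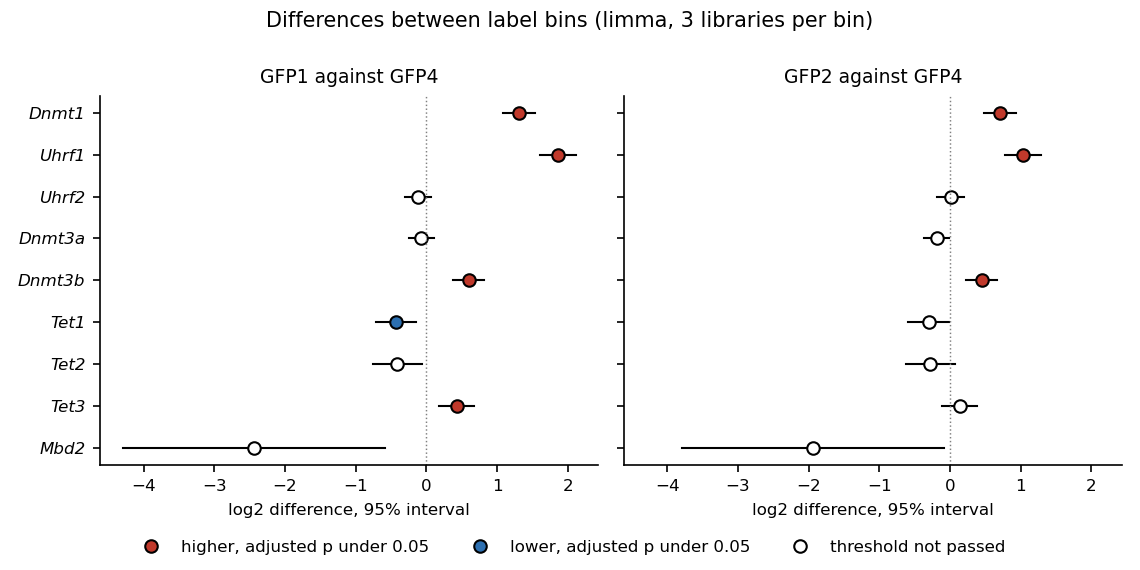
Log2 difference (horizontal axis) with its 95% interval for each of the 9 genes, GFP1 minus GFP4 on the left and GFP2 minus GFP4 on the right. Dnmt1, Uhrf1 and Dnmt3b pass in both panels, and the interval of Mbd2 is the widest in both.

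GFP2 against GFP4 compares libraries with little immunoglobulin signal, 0.00726% to 0.0162% of the linear values in GFP2 and 0.00939% to 0.0737% in GFP4. Dnmt1, Uhrf1 and Dnmt3b were again higher there. Thus 3 of 9 members were called, against 4.35% of all genes tested (2.69% higher and 1.67% lower). Under the filter at 1 ppm the background share was larger, with 964 genes higher and 657 lower of 14037. The 2 comparisons share the GFP4 libraries. Dnmt1 was 1.63-fold higher (log2 difference 0.70, SE 0.108, adjusted p = 0.000709), Uhrf1 2.04-fold (1.03, SE 0.120, adjusted p = 9.32e-05) and Dnmt3b 1.37-fold (0.45, SE 0.104, adjusted p = 0.0153, limma). The Dnmt3b call was lost when GFP2 replicate I (adjusted p = 0.0853), or 1 of GFP4 replicates I (adjusted p = 0.0946) and III (adjusted p = 0.0807), was left out, and without all libraries numbered III (adjusted p = 0.13). The other 6 members did not pass by limma, though Dnmt3a, Tet1 and Mbd2 had lower means at an unadjusted p under 0.05. In all, 6 of 9 members reached that unadjusted level, against 14.2% of all genes. Libraries of GFP2 and GFP4 did not overlap for 5 of 9 members, against 20% of genes tested.

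The linear trend over GFP4, GFP3, GFP2 and GFP1 gives a log2 change per step towards GFP1. It can also pass where a gene jumps between neighbouring bins, so a call does not show a graded change. In that order the bin means were 11.09, 11.20, 11.23 and 11.52 for Tet3. For Mbd2 they were 11.35, 11.25, 9.42 and 8.91. Of the 9 members, 4 rose and 2 fell, where 20.1% of all genes tested were called (9.6% upward and 10.5% downward). Uhrf1 rose by 0.62 per step (SE 0.038), Dnmt1 by 0.43 (SE 0.034), Dnmt3b by 0.19 (SE 0.033) and Tet3 by 0.13 (SE 0.037, adjusted p = 0.0147). Tet1 fell by 0.16 per step (SE 0.043, adjusted p = 0.00999) and Mbd2 fell by 0.92 (SE 0.264, adjusted p = 0.032). Tet2 stood at −0.14 per step (adjusted p = 0.0629). It passed with the filter at 1 ppm (adjusted p = 0.0442), array weights (0.0104), the replicate number as a block (0.0230) and the 4 bins fitted alone (0.00309). It also passed without Total replicate I (0.0286) or III (0.00293) and without the libraries numbered III (0.0288, each an adjusted p). The trend calls were lost for Tet1 without GFP1 replicate III (adjusted p = 0.0631) and for Tet3 without GFP1 replicate I (adjusted p = 0.0627) or GFP4 replicate III (adjusted p = 0.0949). Tet3 also missed the threshold without the libraries numbered III (0.095 per step, adjusted p = 0.0747). The Mbd2 call was lost without GFP1 replicate I or II, GFP3 replicate III or any GFP4 library (adjusted p between 0.0508 and 0.110).

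Between neighbouring bins, calls were few. In GFP3 against GFP4, limma called 0 of 9 members (0.0572% of all genes, 0.0429% higher and 0.0143% lower), with 3 at an unadjusted p under 0.05 (5.86% of all genes), namely Dnmt1 (0.33), Uhrf1 (0.39) and Dnmt3b (0.33, each a log2 difference). In GFP2 against GFP3 it called 0 of 9 (0% of all genes), with 3 at an unadjusted p under 0.05 (5.6% of all genes): Uhrf1 (0.64), Dnmt1 (0.38) and Tet1 (−0.32). In GFP1 against GFP2 it called Dnmt1 (0.61, SE 0.108, adjusted p = 0.00133) and Uhrf1 (0.83, SE 0.120, adjusted p = 0.000224), 2 of 9 members where 7.17% of all genes were called (3.06% higher and 4.1% lower). Dnmt1 missed the threshold there without the libraries numbered III (adjusted p = 0.0719).

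Set against the undivided sort, GFP4 had less of Dnmt1 (−0.86, SE 0.108, adjusted p = 3.43e-05), Uhrf1 (−1.31, SE 0.120, adjusted p = 1.83e-06) and Dnmt3b (−0.45, SE 0.104, adjusted p = 0.00792). These 3 of 9 members compare with 10% of all genes called (4.7% higher and 5.29% lower). Dnmt3b missed the threshold there without GFP4 replicate I (adjusted p = 0.0537), without the libraries numbered III (adjusted p = 0.0688) and with GFP4 and Total fitted alone (adjusted p = 0.0738). Mbd2 was 2.53 higher in GFP4 than in Total on the log2 scale, which did not pass (adjusted p = 0.0947). GFP1 exceeded Total in Dnmt1 (0.46, SE 0.108, adjusted p = 0.0335) and Uhrf1 (0.55, SE 0.120, adjusted p = 0.0206), 2 of 9 members against 1.73% of all genes (0.318% higher and 1.41% lower). Both calls were lost without GFP1 replicate I or III, without Total replicate II, without the libraries numbered III, and with GFP1 and Total fitted alone (adjusted p = 0.126 for Dnmt1 and 0.0658 for Uhrf1). Dnmt1 alone was also lost without GFP2 replicate III or Total replicate III.

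Whether related genes changed by different amounts was tested on their difference within each library, over the 12 libraries of the 4 bins, with an exact two-sided permutation test of the slope per step (369600 assignments, p adjusted over 5 pairs). Only changes of these differences are read, since the unit before the logarithm is not given and levels of 2 genes may not be comparable. Uhrf1 minus Uhrf2 was 0.64 ± 0.07 in GFP1 and −1.34 ± 0.11 in GFP4 (SD, n = 3 each), with −0.96 ± 0.11 in GFP3 and −0.31 ± 0.13 in GFP2. The slope was 0.66 per step (exact p = 5.41e-06, the smallest these assignments can give, adjusted p = 9.02e-06). The pairs were chosen with earlier results of these data known, and the adjustment over 5 pairs does not cover that choice.

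Dnmt1 minus Dnmt3a was 1.95 ± 0.08 in GFP1 and 0.56 ± 0.09 in GFP4 (SD, n = 3 each), a slope of 0.47 per step with the same exact p. Dnmt3b minus Dnmt3a was −0.25 ± 0.12 in GFP1 and −0.93 ± 0.15 in GFP4, a slope of 0.23 (exact p = 0.000368, adjusted p = 0.00046). The means of Dnmt1 minus Dnmt3a in the bins between were 0.94 ± 0.27 in GFP3 and 1.45 ± 0.15 in GFP2, above GFP4 and below GFP1. Those of Dnmt3b minus Dnmt3a were −0.54 ± 0.21 in GFP3 and −0.29 ± 0.07 in GFP2, so that GFP1 and GFP2 overlapped and the gain lay between GFP4 and GFP2. Tet3 minus Tet2 was 0.69 ± 0.07 in GFP1 and −0.16 ± 0.15 in GFP4, a slope of 0.28 (exact p = 5.41e-06, adjusted p = 9.02e-06). Tet1 minus Tet2 had a slope of −0.017 (exact p = 0.586), with means of 0.22 in GFP1 and 0.23 in GFP4.

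**Figure D4:**
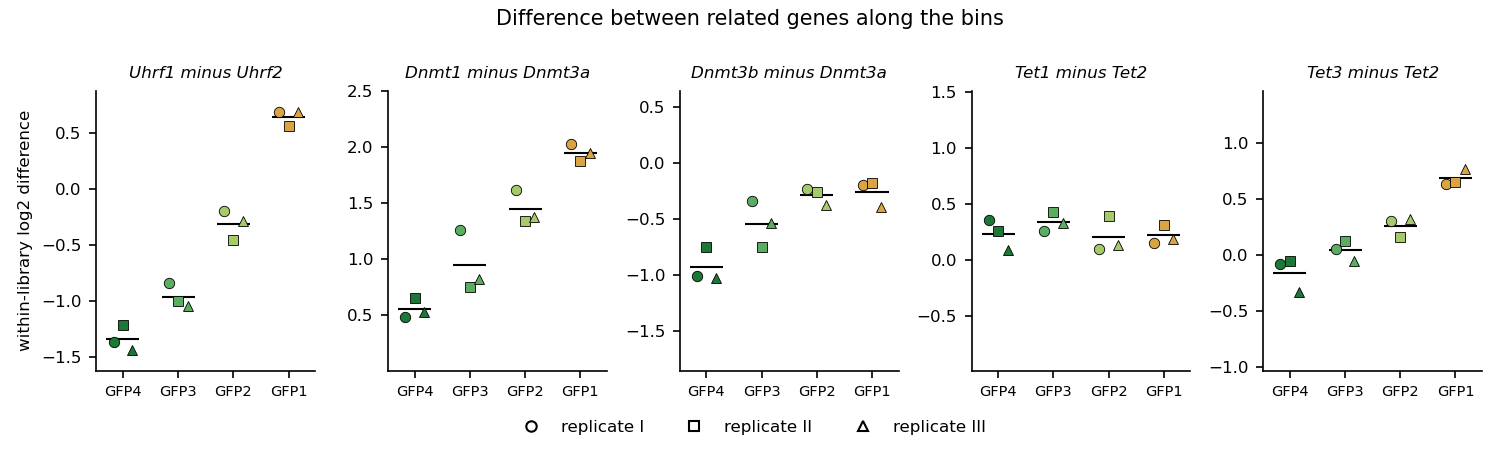
Within-library log2 difference between 2 related genes (vertical axis, the same span in each panel) in GFP4, GFP3, GFP2 and GFP1, with the mean of 3 libraries as a line. The differences Uhrf1 minus Uhrf2, Dnmt1 minus Dnmt3a and Tet3 minus Tet2 climb along the bins, Dnmt3b minus Dnmt3a climbs up to GFP2, and Tet1 minus Tet2 has similar means in GFP4 and GFP1.

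Genes whose centred values lay nearest to a member over the 15 libraries were named as a description, among 9879 genes compared. For Dnmt1 these were Mcm3 (mean absolute difference 0.0705), Nup93 (0.0714) and Mcm7 (0.0724), with a median of 0.425 over all compared. Mcm3 and Mcm7 encode subunits of the replicative helicase and Nup93 a nucleoporin. For Uhrf1 they were Chaf1a (0.0741), Mcm5 (0.0856) and Tacc3 (0.0978), that is a histone chaperone of replication, a helicase subunit and a spindle protein. For Dnmt3b they were Odf2 (0.0535), Ddx11 (0.0590) and Cpsf3l (0.0633). For Tet2 they were Mgea5 (0.0543), which encodes the enzyme that removes O-GlcNAc, Mpp7 (0.0589) and Arhgap12 (0.0648), with a median of 0.244 over all compared. Total replicate III was the lowest of the 15 libraries in Tet2 (10.33), Mgea5 (12.25), Mpp7 (10.16) and Arhgap12 (10.31). Their nearness thus leans on that library. For Tet1 they were Tnfaip3 (0.0587), Per3 (0.0716) and Plcg1 (0.0769), and for Tet3 Setd6 (0.0793), Ints1 (0.0794) and Zfp692 (0.0822). For the flat genes, nearness says little beyond a small spread: Uhrf2 was nearest to Tax1bp1 (0.0298) and Dnmt3a to Mon1b (0.0475).

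Genes that work with the members were grouped by role and compared between GFP1 and GFP4, where the median over all genes tested was −0.069. Of 10 partners of maintenance methylation, 7 rose and 1 fell (median 1.15), where 19.5% of all genes tested were called. Cdca7, which works with the remodeller Hells, rose by 1.37 (SE 0.087, adjusted p = 3.28e-09), and Chaf1a, the large subunit of chromatin assembly factor 1, by 1.83 (SE 0.130, adjusted p = 1.12e-08). Usp7, a deubiquitinase known to stabilise Dnmt1 and Uhrf1, fell by 2.12 (SE 0.402, adjusted p = 0.00302). Its log2 values were 10.65, 10.32 and 10.90 in GFP1, 10.34, 10.75 and 11.64 in GFP2 and 11.63, 11.57 and 12.76 in GFP3, against 12.73, 12.79 and 12.72 in GFP4. Replicate III was again the highest library of GFP1, GFP2 and GFP3. In GFP2 against GFP4, where 4.35% of all genes tested were called, 6 of the 10 rose and 1 fell, with Usp7 at −1.83 (adjusted p = 0.0283).

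Cell cycle genes moved with Dnmt1 and Uhrf1. In GFP1 against GFP4 all 15 S phase genes examined rose (median 1.27), as did all 15 genes of G2 and M phase (median 2.33), and in GFP2 against GFP4 14 and 15 rose (medians 0.73 and 1.59). Of all genes tested, 9.27% were called higher in the first comparison and 2.69% in the second. The S phase genes summed to 0.372% to 0.420% of the linear values in GFP1, against 0.153% to 0.176% in GFP4. Mcm2, a helicase subunit, rose by 1.46 (SE 0.106, adjusted p = 1.36e-08) and Prim1, a primase subunit, by 1.51 (SE 0.116, adjusted p = 2.48e-08). Aurkb and Tpx2, which act in mitosis, rose by 2.55 (SE 0.198) and 2.32 (SE 0.190). The share of cycling cells in each bin was not measured, and its part in the rise of Dnmt1 and Uhrf1 was not tested. B and plasma cell markers rose in 12 of 12 cases in GFP1 against GFP4 and in 0 of 12 in GFP2 against GFP4 by limma (1 of 12 lower at an unadjusted p under 0.05). In GFP2 against GFP4, 3 of 4 megakaryocyte markers rose, as did 1 of 5 erythroid markers (Gata1, by 2.66) and 1 of 7 T and NK cell markers (Nkg7, by 1.17). There, 0 of 5 macrophage markers (median 1.32) and 0 of 5 neutrophil markers (median −0.59) passed. Macrophage markers summed to 0.0108% to 0.0492% of the linear values in GFP2 and 0.00487% to 0.0187% in GFP4. Neutrophil markers summed to 0.121% to 0.287% in GFP2 and 0.170% to 0.445% in GFP4. The part of these cell types in the members' results was not tested.

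The lists that follow are to be read against the 19.5% of all genes called in GFP1 against GFP4 and the 4.35% called in GFP2 against GFP4. Both shares count many genes near the lowest value and were larger under the filter at 1 ppm. Of 14037 genes left by it, 2785 were higher and 3156 lower in GFP1 against GFP4. In GFP2 against GFP4, 964 were higher and 657 lower. Of 10 regulators of de novo methylation, 1 rose and 1 fell in GFP1 against GFP4, and 1 rose in GFP2 against GFP4. The share in GFP1 against GFP4 was near that of all genes tested and below that of the 14037 genes. Trim28, the corepressor of KRAB zinc finger proteins, rose by 0.59 (SE 0.096, adjusted p = 0.00013), and Kmt2a, an H3K4 methyltransferase, fell by 0.68 (SE 0.097, adjusted p = 3.18e-05). Trim28 also passed in GFP2 against GFP4 (0.38, adjusted p = 0.0264), and Kmt2a did not (−0.22, adjusted p = 0.280). Of 9 other methyl-CpG readers and relatives, 1 rose and 2 fell in GFP1 against GFP4, and 1 fell in GFP2 against GFP4. Mbd3, the NuRD subunit related to Mbd2, rose by 0.63 (SE 0.101, adjusted p = 0.000118), while the zinc finger readers Zbtb4 and Zbtb38 fell by 1.23 (SE 0.147, adjusted p = 3.9e-06) and 0.57 (SE 0.096, adjusted p = 0.000198). Zbtb4 also fell in GFP2 against GFP4, by 0.82 (adjusted p = 0.00238), while Zbtb38 (adjusted p = 0.0510) and Mbd3 (adjusted p = 0.186) missed the threshold. Of 12 NuRD partners of Mbd2, 3 rose and 2 fell in GFP1 against GFP4, and 1, Rbbp4, rose in GFP2 against GFP4 (0.33, adjusted p = 0.0467). Hdac2 rose by 0.44 and Rbbp4 by 0.31, while Mta1 fell by 2.83 (SE 0.679, adjusted p = 0.0128) and the remodeller Chd3 by 0.41 (adjusted p = 0.0151). The Mta1 call was lost without GFP1 replicate II (adjusted p = 0.0507), and those of Rbbp4 and Chd3 without single libraries too. Between GFP2 and GFP4, Hdac2 (adjusted p = 0.0653), Mta1 (adjusted p = 0.206) and Chd3 (adjusted p = 0.945) missed the threshold.

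**Figure D5:**
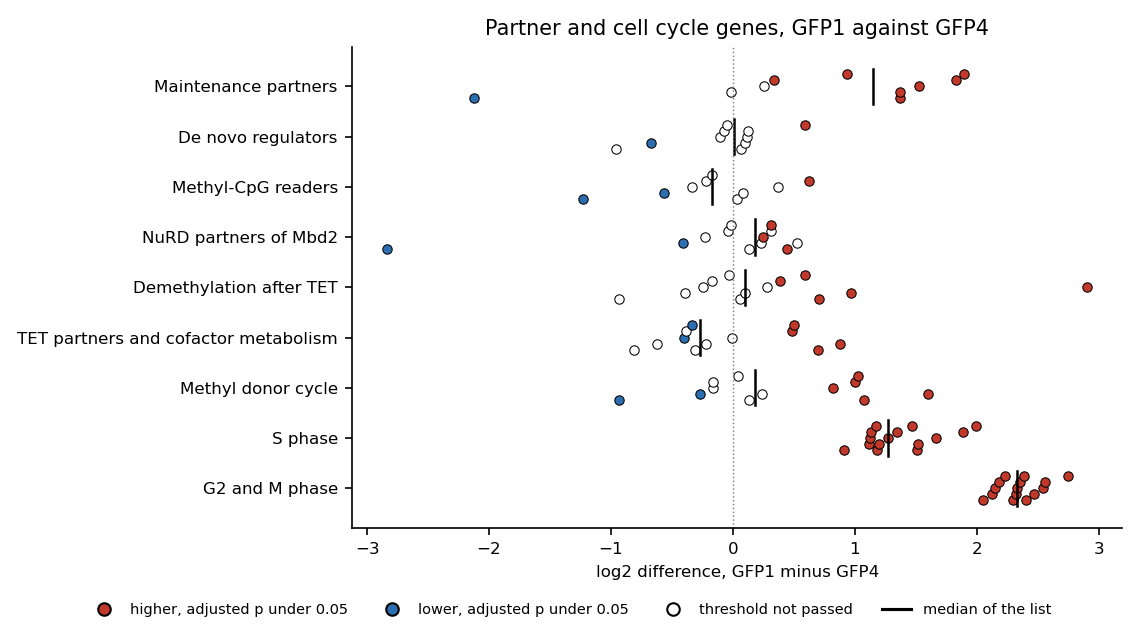
Log2 difference, GFP1 minus GFP4 (horizontal axis), of each gene in 9 lists, with the list median as a vertical line. Red and blue points passed an adjusted p of 0.05. Maintenance partners, S phase and G2 and M phase genes lie mostly to the right, with Usp7 and Mta1 the points farthest to the left.

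Downstream of the TET enzymes, 5 of 13 genes of excision and repair rose in GFP1 against GFP4 and 3 rose in GFP2 against GFP4. Tdg, the glycosylase that removes oxidised methylcytosine, rose by 0.97 (SE 0.102, adjusted p = 8.79e-07) and Parp1, a sensor of strand breaks, by 0.70 (SE 0.097, adjusted p = 2.03e-05), and in GFP2 against GFP4 they rose by 0.43 (adjusted p = 0.0181) and 0.44 (adjusted p = 0.0104). Among 12 TET partners and genes of cofactor metabolism, 4 rose and 2 fell in GFP1 against GFP4, and 3 rose in GFP2 against GFP4. Idh3a and Fh1, enzymes of the citric acid cycle, rose by 0.87 (SE 0.092) and 0.69 (SE 0.093), while Cxxc5, a CXXC zinc finger gene, fell by 0.40 (SE 0.105) and D2hgdh, which clears 2-hydroxyglutarate, by 0.33 (SE 0.108). The D2hgdh call was lost after median-of-ratios rescaling (adjusted p = 0.0711), and both falls depended on single libraries. Between GFP2 and GFP4, Idh3a (0.53, adjusted p = 0.00186) and Fh1 (0.46, adjusted p = 0.00608) passed, and Cxxc5 (adjusted p = 0.515) and D2hgdh (adjusted p = 0.719) did not.

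In the methyl donor cycle, 5 of 12 genes rose and 2 fell in GFP1 against GFP4, and 4 rose and 1 fell in GFP2 against GFP4. The folate enzymes Mthfd1 and Shmt1 rose by 1.08 (SE 0.090, adjusted p = 5.79e-08) and 1.00 (SE 0.099, adjusted p = 4.32e-07). Mat2b, the regulatory subunit of methionine adenosyltransferase, fell by 0.27 (SE 0.077, adjusted p = 0.0147). The Mat2b call was lost without GFP1 replicate III or GFP4 replicate III. In GFP2 against GFP4 Mthfd1 rose by 0.49 (adjusted p = 0.00272) and Shmt1 by 0.53 (adjusted p = 0.00324), and Mat2b missed the threshold (adjusted p = 0.756). In GFP1 against GFP4, Ahcy, which removes the inhibitor left by every methyl transfer, was 1.03 higher (adjusted p = 2.15e-05, limma). Ahcy was named after its value was seen. Mat2a, the catalytic subunit of the methionine adenosyltransferase, stood at −0.16 in GFP1 against GFP4 (adjusted p = 0.594, limma).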

How the data were processed

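Per the labels' protocols, RNA of sorted HSCs was amplified with SMART-Seq v4 and made into Nextera XT libraries. Per the submitters' processing notes, kallisto 0.43.0 and GRCm38 were used; neither the unit before the logarithm nor its offset is stated there. The authors deposited log2 values, 1 column per library. From the values, the columns are quantile normalized, which removes differences in total RNA and lets genes that enter the top ranks push others down. Read depth is unknown.

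Log2 values were turned back to a linear scale by undoing the logarithm and subtracting 1. Genes reaching 1 on that scale in 3 libraries or more (27994) entered limma 3.58.1 in R 4.3.3, 1 mean per group over all 15 libraries, intensity trend, robust moderation, no covariate, Benjamini-Hochberg adjustment over all genes. Intervals are 95%. The model and the permutation test were tested on simulated data. Differences are log2, first group minus second. The file uses the older symbols Whsc1 and 2810417H13Rik for Nsd2 and Pclaf. Coordinates are from GENCODE M21.

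The members, pairs and lists were chosen with earlier results of these data known. Besides the members, the text names from each list up to 2 genes each way by smallest p, and the 3 genes nearest to a member with a mean of at least 10 ppm. Some genes of the lists are counted but not reported by name here.

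Replicate numbers were checked by the correlation of deviations from group means over 10230 genes. Same-numbered libraries correlated above 0.1 in all 3 numbers for GFP1 and GFP2 (0.433, 0.468 and 0.466) and for GFP1 and Total (0.638, 0.610 and 0.443), and a block on the number changed no member's call there. For GFP1 and GFP4 they did not (−0.0965, −0.374 and 0.268). Alternatives were normalization without immunoglobulin genes, median-of-ratios rescaling, no filter, a filter at 1 ppm, a pseudocount of 0.1, array weights, the block, fewer groups (also with GFP1 and Total left out), a shorter slope and each library left out; leaving out all libraries numbered III was added after seeing the data.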

Additional observations from a re-analysis of the deposited data

How the results depend on the processing

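Higher calls for Dnmt1, Uhrf1 and Dnmt3b in GFP1 against GFP4 kept their direction and their side of the threshold under every alternative run. So did the slopes of the 5 gene pairs in all 80 alternative values, from a smaller set of alternatives. The pairs were not run without all libraries numbered III, after median-of-ratios rescaling, with array weights or with a changed filter. Over the 34 member differences, 770 of 834 alternative values kept direction and side, 40 missed the threshold, 18 newly passed and 6 changed sign. The changes of sign were in values near 0. Uhrf2 in GFP2 against GFP4 was −0.018 with array weights, −0.0030 without the libraries numbered III and −0.031 to 0.049 with a library left out. Tet3 there was −0.0056 without the libraries numbered III, the lowest of its values, and up to 0.23 with a library left out. Uhrf2 had a slope of 0.0034 over GFP4, GFP3 and GFP2. The number of members lower in GFP1 than in GFP4 was 1, but 2 with the filter at 1 ppm, array weights or the compared groups alone, 0 with median-of-ratios rescaling, and 0 to 2 with a library left out. Under the replicate block it was 3, with Tet2 (adjusted p = 0.0382) and Mbd2 (adjusted p = 0.0168) passing; the number marks mouse age and doxycycline length, although same-numbered libraries of those bins did not deviate together. Members higher in GFP4 than in Total numbered 0, but 1 with the filter at 1 ppm, the replicate block, the compared groups alone or without the libraries numbered III, and 0 to 1 with a library left out. Members higher in GFP1 than in Total numbered 2, but 0 with the compared groups alone or without the libraries numbered III, and 0 to 2 with a library left out. Members with a falling trend numbered 2, but 3 with the filter at 1 ppm, array weights, the replicate block, the 4 bins alone or without the libraries numbered III, and 1 to 3 with a library left out. The number was 0 over GFP4, GFP3 and GFP2, where the slope is set by GFP2 minus GFP4 alone and is no separate test. Without the libraries numbered III, 1 member was lower in GFP2 than in GFP4, 1 lower in GFP2 than in GFP3 and 1 higher in GFP1 than in GFP2. Members higher in GFP2 than in GFP3 numbered 0 to 1 with a library left out. The cause of these changes was not tested. Read depth is unknown, so no limit from depth can be given.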
